A study of Mus musculus with 8 samples.

Results

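The 5 genes described here encode or modulate secreted growth signals: the hedgehog ligand Shh, the fibroblast growth factor Fgf1, the insulin-like growth factor Igf2, the receptor adaptor Grb10 and the bone morphogenetic protein (BMP) antagonist Chrdl1. They are 5 of the 155 distinct features in the authors' deposited table, which compares Paupar knockdown with control cells. They were selected on their fold changes and adjusted p-values in that comparison together with their function, so these values describe them and are no independent test. The cells were neural stem cells of the mouse subventricular zone (SVZ), the layer of progenitors along the lateral ventricles, expanded in medium with EGF, FGF-2 and the insulin-containing supplement B27. There were 4 samples labelled shPaupar, which received a short hairpin RNA against the long non-coding RNA Paupar by nucleofection, and 4 labelled control. The labels do not say what the control cells received, nor the strain, sex or age of the mice, nor whether the 4 samples of a group were separate cultures. Each group has 1 level per feature there, and the scale of these levels is not documented, so values per sample, depth and replicate spread are not known here. The test behind the deposited p-values is not documented either, so it is not known whether they reflect variation among samples. Paupar is not among the rows used here, so the knockdown could not be checked.

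Hedgehog, FGF, IGF and BMP signals set how neural stem cells of the SVZ divide and which cells they produce. Shh binds Patched and frees Smoothened, which activates Gli transcription factors, and ventral SVZ stem cells depend on it. FGF ligands signal through receptor tyrosine kinases to the MAP kinase cascade, and IGF2 acts through the IGF1 and insulin receptors, to which the adaptor GRB10 binds as a brake. BMP ligands favour the glial fate, and secreted antagonists such as Chordin-like 1 hold them away from their receptors. Igf2 and Grb10 are both imprinted, that is, expressed mainly from the allele of a single parent, with Igf2 paternal in most tissues and Grb10 maternal in most tissues but paternal in neurons.

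The promoters of the imprinted pair are shown because only these 2 of the 5 genes had matched sequences. Each has alternative starts that a level for the whole gene pools. RefSeq (GRCm38.p6) sequences were matched for 2 of the 5 genes, Igf2 with 4 starts and Grb10 with 2. The 250 bases before a start are printed 5′ to 3′ on the minus strand. Capitals mark matches, on either strand, to the motif GGGCGG of the GC box, to TATAAA of the TATA box and to the CCAAT box, whose letters are its name. For Igf2 they are the windows with the fewest and the most CpG dinucleotides, chr7:142666817-142667066 and chr7:142658805-142659054.
Igf2 start number 1: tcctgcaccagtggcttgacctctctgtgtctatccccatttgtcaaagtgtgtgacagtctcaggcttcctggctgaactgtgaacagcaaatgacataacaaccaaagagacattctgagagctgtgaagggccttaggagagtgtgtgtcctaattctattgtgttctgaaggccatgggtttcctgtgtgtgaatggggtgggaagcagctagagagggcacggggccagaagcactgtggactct
Igf2 start number 3: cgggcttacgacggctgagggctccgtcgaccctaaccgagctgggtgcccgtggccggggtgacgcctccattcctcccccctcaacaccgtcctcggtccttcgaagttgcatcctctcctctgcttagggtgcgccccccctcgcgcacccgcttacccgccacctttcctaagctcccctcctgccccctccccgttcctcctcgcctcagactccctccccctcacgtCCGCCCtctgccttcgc
Grb10 start number 1: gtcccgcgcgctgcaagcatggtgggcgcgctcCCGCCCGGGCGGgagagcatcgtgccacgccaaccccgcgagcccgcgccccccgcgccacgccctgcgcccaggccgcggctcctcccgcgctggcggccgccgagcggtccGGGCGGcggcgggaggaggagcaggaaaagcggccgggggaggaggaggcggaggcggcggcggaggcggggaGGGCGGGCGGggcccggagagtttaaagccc
Grb10 start number 2: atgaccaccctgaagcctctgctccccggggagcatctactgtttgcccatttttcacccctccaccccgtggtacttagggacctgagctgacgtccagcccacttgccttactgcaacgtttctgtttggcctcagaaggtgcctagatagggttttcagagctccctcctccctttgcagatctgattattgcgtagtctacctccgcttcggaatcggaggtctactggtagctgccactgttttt
The Grb10 windows lie at chr11:12037421-12037670 and chr11:12027972-12028221.

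The first Grb10 window held 40 CpG dinucleotides, more than 98.7% of the 32851 windows in the RefSeq promoter table, and 5 GC boxes, some of which overlap. The second held 8 CpG and no GC box. Among the Igf2 windows, CpG counts were 1, 10, 22 and 6 at starts 1 to 4 in the direction of transcription, against a median of 6 over all windows. GC content ran from 47.6% to 68.8% over the Igf2 windows and was 81.2% and 54.0% at Grb10. A GC box was present in 32.7% of all windows, a TATA box in 12.4% and a CCAAT box in 33.8%. Start number 3 of Igf2 had 1 GC box, and number 4, not printed, had 2 GC boxes and 1 CCAAT box. Such matches describe these letters only, and the deposited levels do not tell which start was used.

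Shh was at a low level in both groups and, as a ratio, had the second largest decrease of the 5. In the authors' deposited table its level was 27.7 in control and 4.48 in shPaupar cells, so the knockdown cells held 16.2% of the control level. The deposited log2 fold change was -2.59, and the adjusted p in the authors' deposited table was 0.00497. On the assumption that the deposited p-value before adjustment is from a two-sided Wald test, the standard error was 0.591. The 95% interval then ran from -3.75 to -1.44. That interval spans 7.43% to 37.0% of the control level. The locus listed for Shh (chromosome 5, 28456815 to 28467256, minus strand) equals the gene span of the GENCODE M21 annotation of GRCm38, which gives it a single transcript. The opposite strand carries the antisense gene 9530036O11Rik, which covers 86.0% of this span and 15.7% of the Shh exon bases, and the lincRNA gene Gm26894, which shares 12.7% of the exon bases. How the authors' counting used strand is not given in the sources used here. Without strand, reads of Shh and of these partners cannot be told apart in the bases they share.

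Igf2, a fetal growth factor that the choroid plexus and the leptomeninges go on secreting in the adult brain, had the largest decrease of the 5 as a ratio. In the authors' deposited table its level was 35.6 in control and 4.73 in shPaupar cells, 13.3% of the control level. The deposited log2 fold change was -2.87 with an adjusted p of 0.00175 in the authors' deposited table. Under the same Wald assumption the standard error was 0.612 and the interval ran from -4.07 to -1.67, or 5.97% to 31.5% of the control level. The interval for Igf2 contains the estimate for Shh, and the reverse also holds.

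The Igf2 locus (chromosome 7, 142650766 to 142666816, minus strand) has 9 annotated transcripts, 7 of them protein-coding and 1 a retained intron. The protein-coding gene Gm49394 runs in the same direction over 16048 of the 16051 bases of the Igf2 span, and its exons share 3596 bases, or 62.8%, of the Igf2 exon bases. The antisense gene Igf2os covers 44.4% of the span but 1.71% of the exon bases. Neither gene has a row in the authors' deposited table. Reads in shared exons can be divided or dropped by a counter whose annotation holds both genes, so the single Igf2 level is uncertain.

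Fgf1, a ligand without a signal peptide that binds every FGF receptor type, had the highest level of the 5, also per kilobase of exon, and decreased modestly. Its level in the authors' deposited table was 8263 in control and 6215 in shPaupar cells, 75.2% of the control level. The deposited log2 fold change was -0.41 with an adjusted p of 0.00456 in the authors' deposited table. The Wald standard error was 0.0931 and the interval from -0.59 to -0.23, or 66.3% to 85.4% of the control level. Fgf1 lies on chromosome 18 with a span of 90.7 kb, and its listed locus is 68 bases shorter than the annotated gene, while the loci of the other 4 genes equal theirs. The annotation gives 11 transcripts, 9 of them protein-coding and 1 a retained intron. The whole span lies within Arhgap26, a gene of the opposite strand that shares 0 of its exon bases.

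Grb10 was the 1 gene of the 5 that was higher after knockdown. Its level in the authors' deposited table was 3781 in control and 4963 in shPaupar cells, an increase of 31.3%. The deposited log2 fold change was 0.39 and the adjusted p in the authors' deposited table was 0.00690. The Wald standard error was 0.0917 and the interval from 0.21 to 0.57, or 116% to 149% of the control level. Only 2 of the 54 higher features in the authors' deposited table had a smaller log2 fold change. The locus (chromosome 11, 11930508 to 12038683, minus strand) has 9 annotated transcripts, 6 of them protein-coding with 6 distinct 5′ ends, and no other annotated gene overlaps it. The level does not separate the maternal from the paternal allele.

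Chrdl1 was lower, by an amount between those of Fgf1 and Shh. The gene product, also called neurogenesin, is secreted by astrocytes and, in the adult hippocampus, promotes neuronal fate by blocking BMP. The level of Chrdl1 in the authors' deposited table was 2299 in control and 1630 in shPaupar cells, 70.9% of the control level. The deposited log2 fold change was -0.50, and its adjusted p of 0.000704 was the smallest of the 5 in the authors' deposited table, where its p-value ranked 35th of 155. The p-values of Igf2, Fgf1, Shh and Grb10 ranked 48th, 70th, 72nd and 86th in the authors' deposited table. The Wald standard error for Chrdl1 was 0.101 and the interval from -0.69 to -0.30, or 61.8% to 81.3% of the control level. This X-linked locus (chromosome X, 143285674 to 143394262, minus strand) has 5 annotated transcripts, each of them protein-coding, and no overlapping gene.

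**Figure D1:**
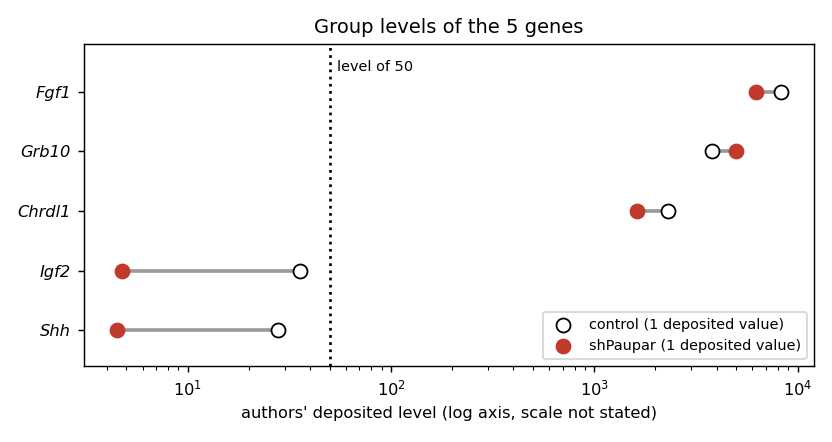
Authors' deposited level of each gene in control (open circles) and shPaupar cells (filled circles) on a log axis, 1 value per group, with the level of 50 dotted. Shh and Igf2 lie below 50 in both groups, Chrdl1, Grb10 and Fgf1 lie above 1000, and Grb10 is the 1 gene with shPaupar to the right of control.

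A level of 50 in both groups divided the 5 genes into 2 low-level ones, Shh and Igf2, and 3 abundant ones, Chrdl1, Grb10 and Fgf1. Igf2 at 35.6 lay not far below the division, while Chrdl1 at 2299 was the closest above, both in control cells of the authors' deposited table. Among all features above 0 in both groups, Acbd5 and Dhrs3 stood just below it in the authors' deposited table, at 45.9 and 47.0 in their higher group. Fam163a and Tssk4 stood just above in the authors' deposited table, at 58.4 and 60.5. Per kilobase of merged annotated exons, the control levels were 1513 for Fgf1, 416 for Grb10, 340 for Chrdl1, 9.73 for Shh and 6.22 for Igf2. On that scale Shh comes before Igf2, the reverse of their order on the deposited scale, and whether the deposited levels already account for length is not known.

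The changes are given here on both scales as a description. Each feature of the authors' deposited table passed an adjusted p of 0.05, and features that did not pass were not seen. Ratios at low and at high levels therefore cannot be compared fairly. In level units, Fgf1 fell by 2048, Chrdl1 fell by 669, Igf2 fell by 30.9 and Shh fell by 23.2, while Grb10 gained 1182. As ratios the low-level pair came first: the control level was 7.53 times the shPaupar level for Igf2 and 6.18 times for Shh, against 1.41 times for Chrdl1 and 1.33 times for Fgf1. The log2 ratio of the levels was -2.91 for Igf2 and -2.63 for Shh, slightly beyond the deposited values, and equalled the deposited value to 2 decimals for Chrdl1, Fgf1 and Grb10. The smaller standard error of the low-level pair was 5.87 times the largest of the abundant 3. Because each standard error is calculated from the fold change and its p-value, this restates the ratios in part.

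**Figure D2:**
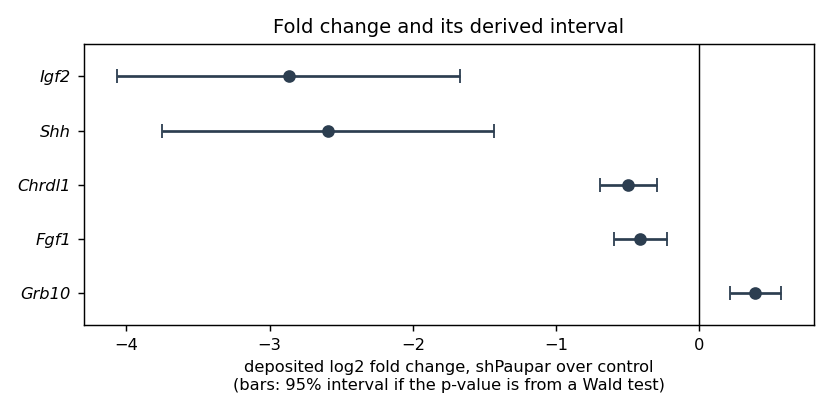
Deposited log2 fold change (shPaupar over control) of each gene. Bars give the 95% interval that holds if the deposited p-value before adjustment is from a two-sided Wald test. The bars of Igf2 (-4.07 to -1.67) and Shh (-3.75 to -1.44) are wider than those of Chrdl1, Fgf1 and Grb10, and each gene was chosen with these values known.

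Set beside all features, the adjusted p was under 0.05 for 5 of 5, which says nothing of them because the authors' deposited table holds 100% such features. Under 0.01 the count was again 5, beside 60.6% of the features in the authors' deposited table. Lower in shPaupar cells were 4, beside 65.2% of the features, and higher was 1, beside 34.8%. The median log2 fold change of the 132 features above 0 in both groups was -0.45 in the authors' deposited table. The 31 features under 50 in both groups included 15 above 0 in both, and the smallest absolute log2 fold change of these 15 was 1.16, in the authors' deposited table. Their median absolute log2 fold change was 3.50, against 0.60 for the 117 features at or above 50 in a group. The median standard errors, derived from the deposited p-values, were 0.648 and 0.131. Each standard error is calculated from the fold change itself, so it is no separate measure of precision. The features were selected on adjusted p, so the contrast in fold change is no finding about these features. Of the 90 features that were lower and above 0 in both groups of the authors' deposited table, Igf2 had the 9th and Shh the 13th largest decrease, while Chrdl1 was 64th and Fgf1 76th.

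**Figure D3:**
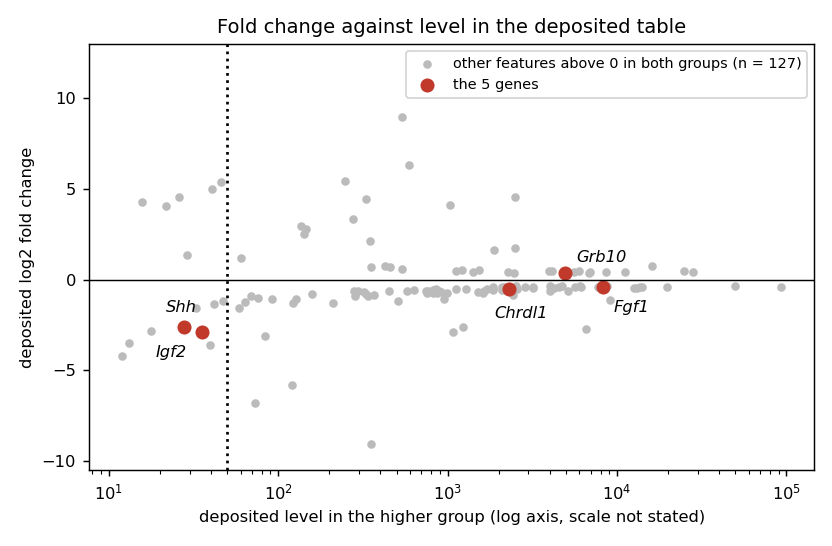
Deposited log2 fold change against the level in the higher group (log axis) for the 132 features above 0 in both groups, with the 5 genes in colour and the level of 50 dotted. Left of the dotted line no feature has an absolute log2 fold change under 1.16. Only features selected on adjusted p are shown, and the cause of this gap was not tested. Chrdl1, Fgf1 and Grb10 lie at levels above 1000.

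No other gene on the 4 pathway lists had a row to compare with. The hedgehog list held 18 genes, the FGF list 33, the IGF and insulin list 23 and the BMP list 33, or 107 in all, and the rows of the authors' deposited table included 5 of them, the 5 genes described here. Receptors, transducers and target genes such as Ptch1, Gli1, Fgfr1, Igf1r, Bmpr1a and Id1 have 0 rows among them and were not analysed here, so nothing is known from these data about the response to the ligands. Of 36 symbols on a list of imprinted genes, 2 were rows, Igf2 lower and Grb10 higher. H19, the maternally expressed neighbour of Igf2, was not a row.

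Other features above 0 in both groups were searched, leaving out symbols of the Gm, Rik, XLOC and AL kinds. Those most like each gene were taken by the nearest log2 fold change in the authors' deposited table, a likeness over a single contrast. They were Cabp7 (-2.84) and Tecpr1 (-2.91) for Igf2, and Adat3 (-2.62) and Pcdhga2 (-2.74) for Shh in the authors' deposited table. The row named Adat3 carries the identifier of Gm49322, and the Tecpr1 locus is that of a retained-intron transcript. Cabp7, a calcium-binding protein gene, in the authors' deposited table was also a low-level feature, at 17.7 in control and 2.37 in shPaupar cells. The nearest to Chrdl1 were the adhesion molecule gene Cntn1 (-0.50) and the autotaxin gene Enpp2 (-0.50), and to Fgf1 the potassium channel partner gene Kcnip3 (-0.41) and the cholesterol exporter gene Abca1 (-0.41) in the authors' deposited table. Nearest to Grb10 were the NAD kinase gene Nadk (0.40) and Pnmal2 (0.40) in the authors' deposited table.

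Some glial markers and a neuroblast marker were lower too. Of the astroglial side, the authors' deposited table holds 4 of 21 neural stem cell and astroglial markers, each of them lower: Slc7a10 (-1.05), Aqp4 (-0.45), Aldoc (-0.43) and Slc1a2 (-0.35). The median of these 4, -0.44, lies between the values of Fgf1 and Chrdl1, which astrocytes express as well. So does the median of the features at or above 50 in a group and above 0 in both, also -0.44. Of all features, 65.2% were lower, and a link of Fgf1 or Chrdl1 to these markers was not tested. Dcx, 1 of 15 neuroblast and neuronal markers, was in the authors' deposited table lower with a log2 value of -0.91. The 45 markers of oligodendrocyte, ependymal, microglial, endothelial and mural, leptomeningeal or choroid plexus cells had 0 rows. These lists therefore give no level for those cell types, including the tissues that secrete Igf2. Genes on none of the lists, Enpp2 among them, were not used as markers. In bulk RNA, fewer cells of a type and less RNA per cell cannot be told apart, and the part of cell composition in the 5 changes was not tested.

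Igf2 and Chrdl1 each had another feature of the authors' deposited table close by on their chromosome. Lsp1, a leukocyte-specific actin-binding protein gene, lies 156 kb from Igf2 on the side of its 3′ end. Lsp1 was lower too in the authors' deposited table, at 42.0 in control and 16.6 in shPaupar cells, with a log2 fold change of -1.33 and an adjusted p of 0.0197. Dcx lies 462 kb from Chrdl1 on the side of its 5′ end and was at 286 in control and 152 in shPaupar cells of the authors' deposited table. For both genes this was the 1 feature among the protein-coding genes annotated within 1 Mb, which number 48 besides Igf2 and 11 besides Chrdl1. Non-coding features were not counted in these windows. Fgf1 had the protocadherin row Pcdhga2 at 997 kb (-2.74 in the authors' deposited table), and Shh and Grb10 had no feature within 1 Mb, the nearest being 2.78 Mb and 7.18 Mb away. Another feature stood within 500 kb for 2 of the 5 genes, beside 29 of the 154 features with a locus in the authors' deposited table (18.8%), and within 1 Mb for 3 of 5, beside 27.9%.

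**Figure D4:**
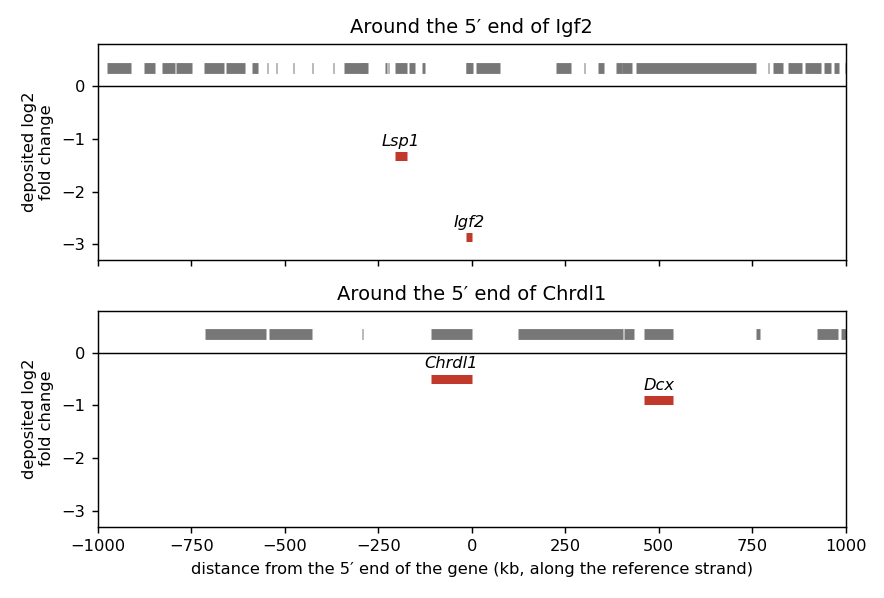
Deposited log2 fold change of protein-coding features within 1000 kb of the 5′ end of Igf2 (upper) and of Chrdl1 (lower). Distance is in kb along the reference strand, and grey blocks mark annotated protein-coding genes. Among protein-coding genes, Lsp1 is the 1 other feature near Igf2 and Dcx the 1 near Chrdl1, and both lie below 0.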

How the data were processed

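The labels' protocols describe total RNA that was cleared of DNA and ribosomal RNA, primed with random hexamers and sequenced as paired reads. Among tools, the submitters' processing notes list StringTie, TopHat2, HISAT, HISAT2 and CASAVA, with no role or version given. The counter, the test, the strand setting and the genome build were not given in the sources used here. As a signal, the authors' deposited levels have 1 value per group and an undocumented scale. The log2 values in the authors' deposited table are shPaupar over control, and their sign matches the level difference in 155 of 155 features. Deposited p-values are given before and after adjustment, by a method not named. Of 156 rows, 1 was shifted by a column and read accordingly, 1 repeat was dropped, and levels below 1e-10 were read as 0.

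The members and the 12 gene lists were chosen with earlier results of these data known. Named genes were the members, list genes with a row, and the features on either side of the level of 50. The 2 features nearest in log2 fold change to each member, after the filter on level and symbol, were named as well. A test per sample was designed in case the table held such values. It holds 1 value per group, so no test between samples was run. A standard error is the size of the log2 change over the normal deviate of its p-value before adjustment. Simulated data checked only the arithmetic of this formula, not whether the deposited p-values are from a Wald test. Overlaps and neighbours came from GENCODE M21 (GRCm38) and promoters from RefSeq. Python 3.11.15, pandas 2.3.3, NumPy 2.4.6, SciPy 1.17.1 and Matplotlib 3.10.9 were used.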

Additional observations from a re-analysis of the deposited data

How the results depend on the processing

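The fold changes were recomputed with a pseudocount of 1, a pseudocount of 0.1 and the authors' deposited log2 fold change in place of the ratio of levels. A pseudocount cannot turn the direction of a ratio, so these settings bear on size alone. Over them Igf2 ran from -2.91 to -2.68 and Shh from -2.63 to -2.39 on the log2 scale, while Chrdl1, Fgf1 and Grb10 moved by at most 0.000257. At an adjusted p under 0.01 the count of genes passing was 5, as at 0.05. With a low level of 10 in place of 50 the number of low-level genes was 0, and with 100 it was 2. The median log2 fold change of the features was -0.45, and -0.44 among those that reach 50 in either group. No paired analysis was possible because the table gives 1 value per group, and samples could not be left out in turn for the same reason. Depth per sample is unknown, so no interval from counting error can be given.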

Other observations

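Some further genes were chosen with their values in view and represent no pathway. In the authors' deposited table, Nell2, which encodes a secreted neural glycoprotein, was at 13165 in control and 9678 in shPaupar cells, with a log2 fold change of -0.44 and an adjusted p of 0.000598. Nephronectin (Npnt), an integrin ligand of the extracellular matrix, had in the authors' deposited table a log2 value of -0.43, close to that of Fgf1. In the authors' deposited table, Fndc5, which encodes the precursor of irisin, was at 450 in control and 290 in shPaupar cells (-0.63). The matrix protease gene Adamts5 was, in the authors' deposited table, at 992 in control and 592 in shPaupar cells (-0.74, adjusted p 0.000141). Tgfb1i1, a focal adhesion adaptor gene induced by TGF-beta, was higher in shPaupar cells, and the authors' deposited table gives it 286 in control and 457 in shPaupar cells (0.68, adjusted p 0.00748). Disp3, a member of the dispatched transporter family that was on none of the lists, was in the authors' deposited table at 1845 in control and 1412 in shPaupar cells (-0.39, adjusted p 0.0471).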
